A study of Saccharomyces cerevisiae with 6 samples.

Results

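The comparison described here sets T3 against T1 among 3 groups of yeast libraries named as arrest samples, T3 taken as the longest arrest and T1 as the shortest. It covers every named entry of the deposited table with a mean of at least 1 TPM (reads per gene divided by its length, as a share of a total that is the same in each library) over the 6 libraries, which kept 6046 of 6400 entries. Poly(A) RNA came from W303, a laboratory strain of Saccharomyces cerevisiae, with 2 libraries in each of T1, T2 and T3, replicates A and B. The titles give the word arrest for all 6 libraries and the series' design text speaks of populations of 3 mean sizes. Neither an arrest agent, a time nor a cell size stands in the labels, and no unarrested library was analysed here, so the arrest itself is shared by both sides of the comparison. Nothing states that the replicates were separate cultures, so p-values may measure technical spread only. The 5 alpha-cell markers MF(ALPHA)1, MF(ALPHA)2, STE3, SAG1 and AFB1 lay between 19.5 and 3200.0 TPM over the libraries, the 7 a-cell markers between 0.77 and 11.2 TPM, and 4 markers of diploid or sporulating cells between 1.80 and 15.7 TPM. Depth recovered from the TPM steps was 17901713 to 23574176 fragments per library, with a median of 1105 to 1469 fragments per open reading frame, and replicates correlated across genes with Spearman's rho of 0.994 (T1), 0.996 (T2) and 0.996 (T3).

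A yeast cell that is held before division goes on adding mass and surface, so it must keep supplying wall, membrane and protein while its set of chromosomes stays the same. The wall consists of glucan, chitin and mannoproteins, and its synthesis is tied to the cell cycle and to secretion. Membrane lipid genes respond to inositol and choline through the activators Ino2 and Ino4 and the repressor Opi1, and vitamin, amino acid and nitrogen genes each answer to regulators of their own.

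Between T1 and T3, 26 of 42 genes of wall proteins and remodeling enzymes rose and 8 fell. Of 15 vitamin B6 and biotin genes, transporters among them, 10 rose and 0 fell. Of 41 genes of endocytosis and the actin patch 25 rose and 3 fell. Of 22 genes of phospholipid synthesis 14 fell and 1 rose, and of 19 amino acid permease genes 10 fell and 3 rose. Of the 6046 genes, 1877 rose (31.0% of those tested) and 1024 fell (16.9%) in limma's moderated test on log2(TPM + 1), at a Benjamini-Hochberg adjusted p under 0.05. Most changes were small: the median absolute log2 change was 0.28, and from the 5th to the 95th percentile changes ran from -0.59 to 1.06. Past 1.5-fold there were 877 rises and 298 falls, past 2-fold 340 and 61, and past 4-fold 29 and 9. Both T3 libraries lay above both T1 libraries for 2765 genes (45.7%) and below both for 1773 (29.3%). The T2 mean lay between those of T1 and T3 for 2612 of the 2901 genes that changed (90.04%). These genes were selected for a difference between T1 and T3, which favours a T2 mean between them. The share over all tested genes is not given, so the 90.04% is a description only. Genes of stress, respiration, ribosomes, translation and chaperones were set aside in 6 lists. Their 509 tested members held 124 of the rises and 247 of the falls. The remaining 5537 genes held 93.4% of the rises and 75.9% of the falls, with 1753 genes up and 777 down. Of these 5537, 31.7% rose and 14.0% fell, near the 31.0% and 16.9% of all genes.

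The balance of rises and falls depended on how the libraries were put on a common scale. TPM are shares of a fixed total, the median log2 change over all genes was 0.09, and without a spike-in the amount of mRNA per cell was not measured. With libraries rescaled by the median of ratios 1586 genes rose and 1567 fell, with quantile normalization 1421 (23.5%) rose and 1723 (28.5%) fell, with ribosomal protein genes left out of the total 1337 rose and 1843 fell, and with a length trend removed 1554 rose and 1908 fell. The median of all genes moved to -0.01, -0.04, -0.06 and -0.04. Rises made up 64.7% of the changed genes as deposited, and 50.3%, 45.2%, 42.0% and 44.9% in these alternatives. List medians below are log2 changes, to be read beside the 0.09 of all genes, and counts after quantile normalization, or without a library named by group and replicate, follow where a count of at least 3 moved by more than 1.5 times.

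Counted in TPM rather than in genes, 13.5% of the mRNA pool differed between T1 and T3 for the A replicates and 12.04% for the B replicates, with 12.2% and 12.8% for the crossed pairs. Replicates of a group differed by 3.74% in T1, 4.02% in T2 and 4.23% in T3. The figure is the summed gain in TPM of all genes that gained, as a share of the total. In the group means 123 genes gave 50% of the gain and 67 genes gave 50% of the loss. Cytosolic ribosomal protein genes, 137 in number, lost 6.67 percentage points, from 43.8% and 41.8% of all TPM in T1 to 35.2% and 37.1% in T3. Wall proteins and remodeling enzymes gained 1.34 points, from 2.05% and 2.12% to 3.52% and 3.33%, close to the 1.39 points gained by 57 genes of respiration and the tricarboxylic acid cycle. Vitamin B6 and biotin genes, 15 in all, went from 0.111% and 0.116% to 0.308% and 0.278%. The 4213 genes outside every list gained 3.69 points together.

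**Figure D1:**
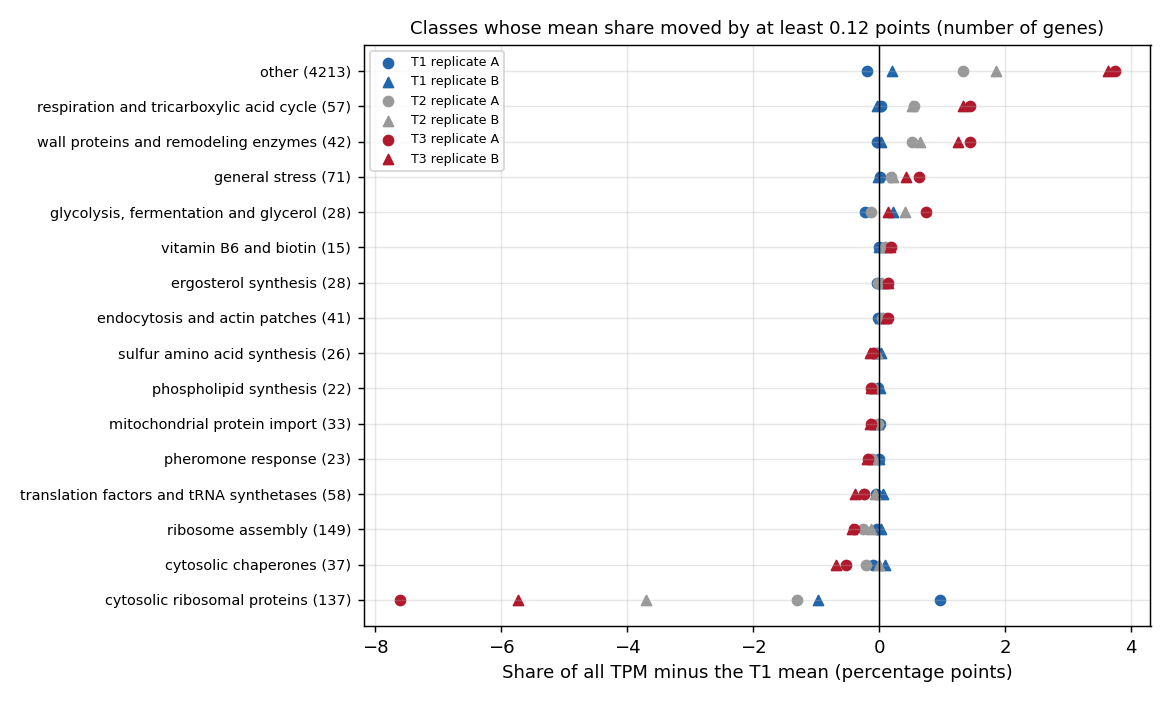
Share of all TPM in each library minus the mean of the T1 libraries, in percentage points, for gene classes whose mean share moved by at least 0.12 points. Points are single libraries, circles replicate A and triangles replicate B. Ribosomal protein genes lost 6.67 points, and wall proteins gained 1.34 points.

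The single transcripts with the largest gains in TPM were CWP2, a major wall mannoprotein, YMR122W-A, SED1, another wall mannoprotein, the glycolytic genes FBA1 and GPM1, and ATP15, an ATP synthase subunit. CWP2 stood at 3107 and 2810.3 TPM in T1, 6097 and 5923 TPM in T2, and 8738 and 8765 TPM in T3. SED1 stood at 3477 and 3679 TPM in T1, 4239 and 4537 TPM in T2, and 6225 and 5586 TPM in T3, and YMR122W-A at 1593 and 1375 TPM in T1, 3790.3 and 3320.4 TPM in T2, and 4899.8 and 5159 TPM in T3. For all 3 the T3 libraries lay above the T1 libraries without overlap. The largest losses were RPL41A, RPL39, ZEO1, RPS21A, MF(ALPHA)1 and RPS31. Among them ZEO1, a peripheral membrane protein linked to wall integrity signaling, fell from 5111 ± 490.3 to 3501 ± 475 TPM (SD, n = 2; log2 change -0.55 with SE 0.10 and adjusted p = 0.000446 by limma). RPL41A lost the most TPM, with an adjusted p of 0.0864 by limma, above the threshold.

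The 15 largest rises outside the 6 lists set aside, taken from genes whose T1 or T3 mean reached 10 TPM, ranged from a log2 change of 2.21 for tG(GCC)E to 3.31 for CIS3. GPG1, a proposed gamma subunit for Gpa2, stood at 41.1 and 43.1 TPM in T1, 154 and 159.6 TPM in T2, and 378 and 381 TPM in T3. YBR071W, a gene of unknown function, stood at 67.7 and 85.2 TPM in T1, 184 and 209 TPM in T2, and 448 and 420.3 TPM in T3. For both genes each step, from T1 to T2 and from T2 to T3, was larger than the gap between replicates. GPM2, a homolog of phosphoglycerate mutase taken to be inactive, rose from 10.9 ± 1.41 to 64.96 ± 1.26 TPM (SD, n = 2; log2 change 2.48 with SE 0.13 and adjusted p = 8.73e-09 by limma). ACM1, an inhibitor of the Cdh1 form of the anaphase-promoting complex, rose from 4.50 ± 1.24 to 28.4 ± 0.936 TPM (log2 change 2.44 with SE 0.16 and adjusted p = 4.64e-08 by limma). HO, the endonuclease of mating type switching, rose from 3.39 ± 0.877 to 21.3 ± 2.01 TPM (log2 change 2.36 with SE 0.19 and adjusted p = 3.87e-07 by limma). EGO4 and YBR201C-A rose from 48.3 to 250.2 TPM and from 19.6 to 99.3 TPM. HSP33 (log2 change 2.37) and MAL12 (log2 change 2.58) have near-identical copies and are uncertain. CIS3, BIO4, PCL1, RNR1 and CLB2 are described with their lists.

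Among the 15 largest falls, ranging from -3.44 for CTS1 to -1.61 for TNA1 in log2 change, AAD6 came second in size. AAD6, of the aryl-alcohol dehydrogenase family and annotated as a pseudogene, stood at 129 and 169 TPM in T1, 33.4 and 38.5 TPM in T2, and 18.4 and 21.3 TPM in T3. CHA1, which encodes the enzyme that breaks down serine and threonine, stood at 98.1 and 102 TPM in T1, 57.1 and 47.8 TPM in T2, and 16.4 and 15.2 TPM in T3. TNA1, the carrier of nicotinic acid, stood at 99.7 and 104 TPM in T1, 51.1 and 56.8 TPM in T2, and 32.4 and 32.9 TPM in T3. That T3 libraries lay below T1 libraries was required by the choice of these genes. The place of T2 was not, and in these 3 the T2 libraries lay between. AQY2, a water channel gene, and YLL053C, an open reading frame that overlaps it by 50 bases on the same strand, fell from 28.6 to 8.30 TPM and from 23.7 to 6.20 TPM, and reads of the overlap belong to both. YLR285C-A fell from 13.2 to 3.20 TPM and YDR215C from 13.5 to 3.39 TPM. The snoRNA gene snR49 fell from 36.97 to 10.9 TPM, the entry tF(GAA)P1 from 34.2 to 7.24 TPM, and tG(GCC)E rose from 1.45 to 10.5 TPM. Small RNAs of these kinds carry no long poly(A) tail, and since the strand setting is not recorded their reads cannot be told apart from those of neighbouring transcripts. Of these 30 genes, 23 were tested in each of 17 alternative settings and passed in each. The other 7 passed wherever they were tested: 4 had a mean under 10 TPM over the 6 libraries, and the setting with a length trend removed took in protein-coding genes only.

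**Figure D2:**
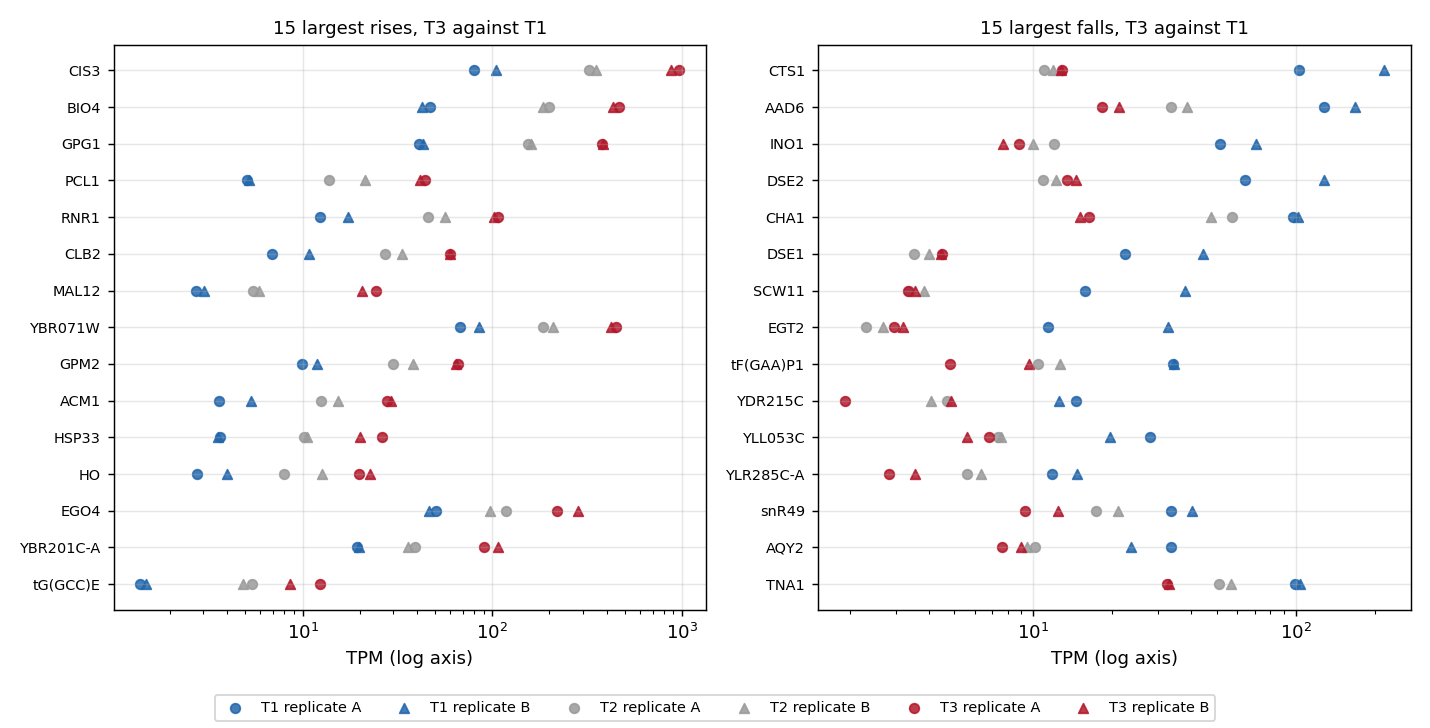
TPM in each library on a log axis for the 15 largest rises (left) and the 15 largest falls (right) between T1 and T3, outside the lists of stress, respiration, ribosome, translation and chaperone genes. Each point is a library. T2 lies between for the rises, while CTS1, DSE1, DSE2 and EGT2 were lower in T2 than in T3.

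Genes were then read in 67 process lists, each given as tested members that rose and fell. Counts stand against 31.0% of rises and 16.9% of falls over all genes. In 20 of the lists the larger of both counts changed side or was matched under at least 1 of the 4 alternative scalings, so the balance of these lists depends on the scaling.

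**Figure D3:**
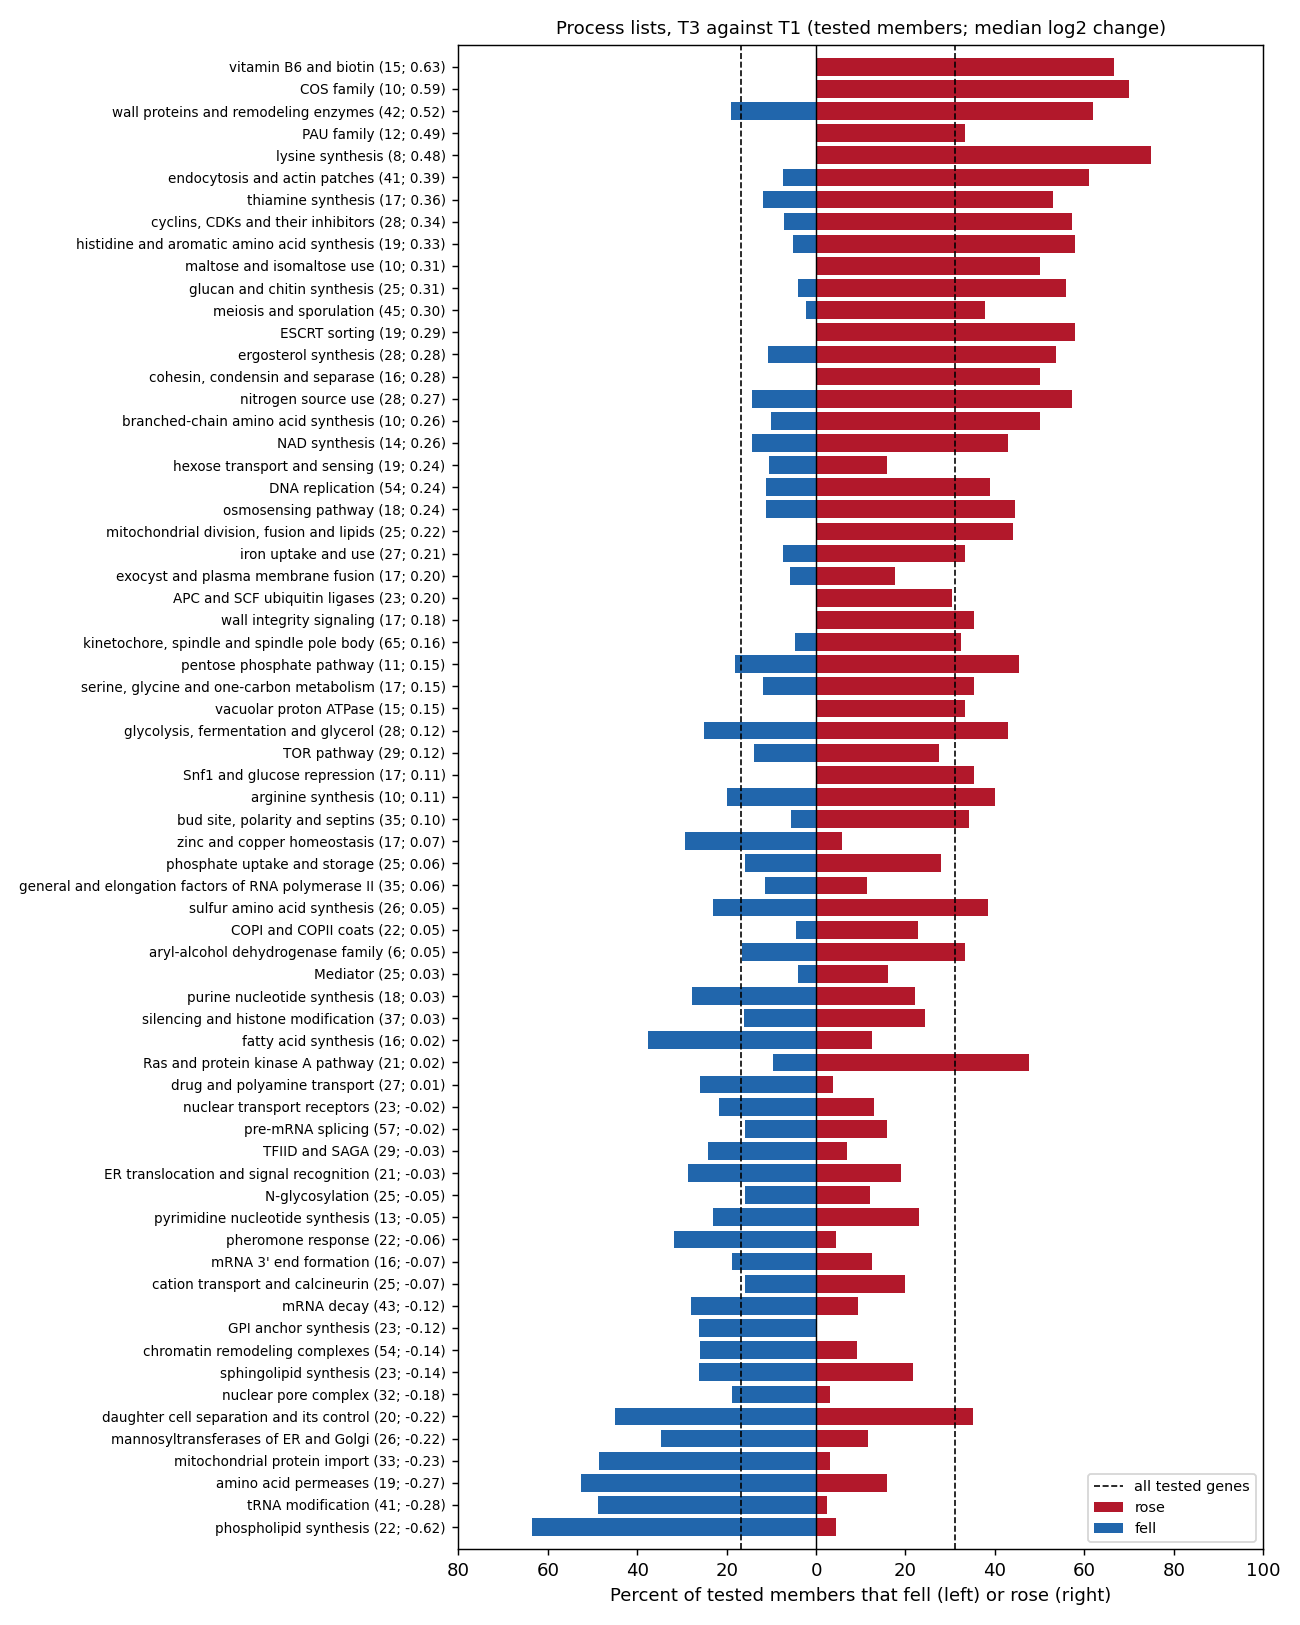
Percent of tested members that rose (right) or fell (left) in each process list, ordered by median log2 change. Brackets give tested members and the median, and dashed lines mark 31.0% and 16.9%, the shares over all 6046 genes. Phospholipid synthesis stands at the bottom with a median of -0.62, and vitamin B6 and biotin at the top with 0.63.

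Phospholipid synthesis had the lowest median of the 67 lists. Of 22 tested genes 1 rose and 14 fell (63.6% fell), with a median log2 change of -0.62, and after quantile normalization there were 0 rises and 19 falls. The falls covered the pathway from inositol and choline uptake to the last methylation step. INO1, the synthase that makes inositol phosphate, stood at 51.6 and 70.7 TPM in T1, 12.003 and 10.03 TPM in T2, and 8.86 and 7.69 TPM in T3. OPI3, the methyltransferase that completes phosphatidylcholine and the most abundant member, stood at 885 and 922 TPM in T1, 581 and 599 TPM in T2, and 419 and 445 TPM in T3. ITR1, the main inositol transporter, stood at 426 and 473 TPM in T1, 259.9 and 293 TPM in T2, and 222 and 231 TPM in T3. INO1 had reached a level near that of T3 in T2, whereas OPI3 and ITR1 lay between. CHO1, the phosphatidylserine synthase, fell from 363 ± 31.9 to 193 ± 5.03 TPM (SD, n = 2; log2 change -0.90 with SE 0.09 and adjusted p = 3.68e-06 by limma). CHO2, the first phosphatidylethanolamine methyltransferase, and PSD1, the mitochondrial decarboxylase, had log2 changes of -0.93 and -1.03. HNM1, the choline transporter, had -0.92, and CDS1, which makes CDP-diacylglycerol, had -0.88. The regulators fell too: INO2, the activator subunit, from 40.1 to 26.2 TPM (limma adjusted p = 0.000271) and OPI1, the repressor, from 78.2 to 46.2 TPM (limma adjusted p = 2.66e-05). INO4, the partner of INO2, stood at 60.4 TPM in T1 and 53.8 TPM in T3 and did not pass (limma adjusted p = 0.168). PIS1, which uses inositol to make phosphatidylinositol, was the member that rose, from 223 ± 7.27 to 261 ± 0.954 TPM (log2 change 0.22 with SE 0.09 and adjusted p = 0.0436 by limma).

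Sequence upstream of these genes is shown because a motif of their known regulators was more frequent there than in other upstream windows. The UASINO element bound by Ino2 and Ino4, searched as CATGTGAA on both strands in the 250 bases before each start codon, was found in 36 of 5790 upstream windows (0.622%) and in 9 of the 22 phospholipid windows (40.9%). Of the 9, 6 fell and 0 rose, and INO4, CKI1 and EKI1 did not pass. Over all 22 phospholipid genes 14 fell and 1 rose, so falls were about as frequent in the list with and without a match. Of all 36 windows with the motif, 47.2% belonged to genes that fell and 8.33% to genes that rose. The stretch of INO1 from 250 to 151 bases before the start codon holds 2 matches, at -243 to -236 and, on the other strand, at -180 to -173. The other genes are shown as 30 bases around the match, with the match in capitals, 5′ to 3′ on the gene's strand, in build R64:
INO1 (chrX:136084-136183, minus strand): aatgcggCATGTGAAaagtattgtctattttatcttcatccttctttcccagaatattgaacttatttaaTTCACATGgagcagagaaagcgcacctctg
ITR1 (chrIV:1445670-1445699, minus strand): cttccccaccgCATGTGAAaaaagctcgac
CHO1 (chrV:208617-208646, minus strand): gcctttgagctTTCACATGgacccatctaa
CDS1 (chrII:297886-297915, minus strand): agatgggatgaCATGTGAAaagtgtaacaa
CPT1 (chrXIV:380977-381006, minus strand): cgattaaagtgCATGTGAAaattcgcggga
INO2 (chrIV:699594-699623, minus strand): agtacaacacaCATGTGAAtttttttcagt
INO4 (chrXV:111991-112020, minus strand): caaacaaaataTTCACATGtttttctcacc
CKI1 (chrXII:408239-408268, plus strand): atggtataataTTCACATGgtgctctaccg
EKI1 (chrIV:751403-751432, plus strand): ccactagacagCATGTGAAaacggtgatga
The match in ITR1, CPT1, CDS1, INO2 and EKI1 reads in the gene's direction and that in CHO1, INO4 and CKI1 in reverse. A match is a description of the letters, not evidence of binding.

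**Figure D4:**
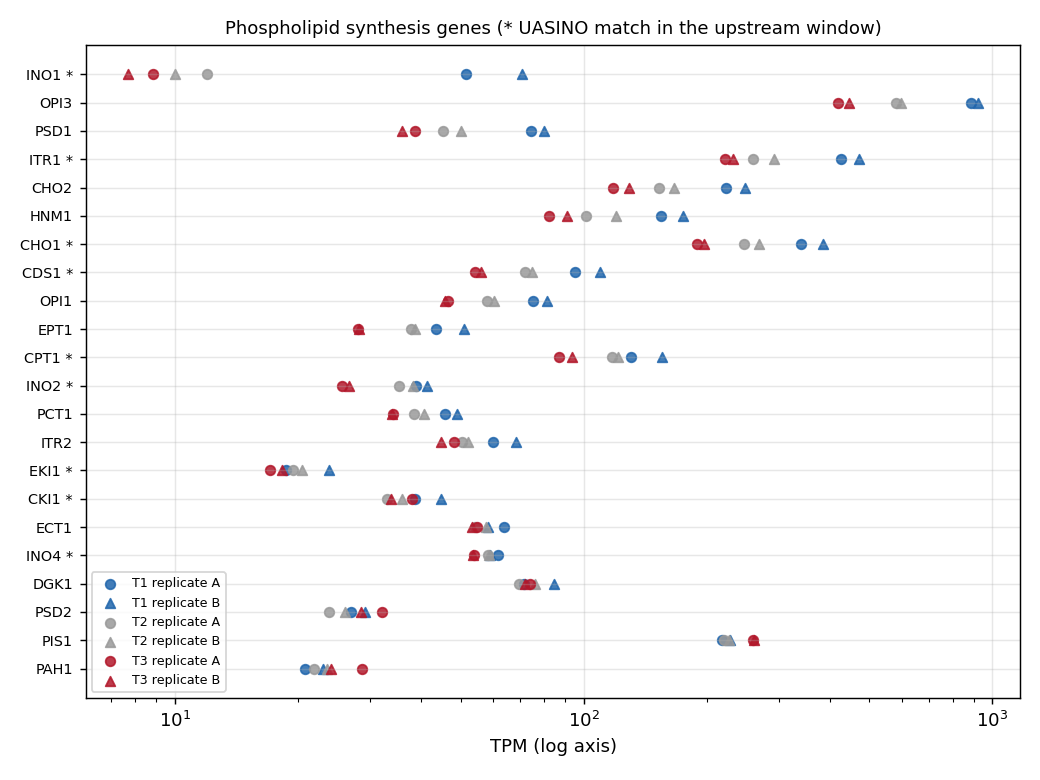
TPM on a log axis in each library for the 22 tested phospholipid synthesis genes, from the most negative log2 change at the top, with an asterisk where the upstream window holds a UASINO match. Each point is a library. For 14 genes the test was passed in the direction of lower T3, and PIS1 rose.

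The other lipid lists differed from it. Of 28 genes of ergosterol synthesis, the route to the yeast sterol, 15 rose and 3 fell (7 rises and 5 falls after quantile normalization; 6 rises without T1 A and 7 without T3 B; median 0.28), but with ribosomal protein genes left out of the total 6 rose and 6 fell. ERG10, the thiolase that opens the route, rose from 263 ± 39.4 to 448 ± 23.1 TPM (SD, n = 2), and ERG9 and ERG6 had log2 changes of 0.66 and 0.60. The gene of its transcription factor, UPC2, fell from 9.12 to 5.64 TPM, and the sterol acyltransferase genes ARE1 and ARE2 fell by 0.49 and 0.37 on the log2 scale. In fatty acid synthesis, 2 rose and 6 fell (median 0.02) of 16. OLE1, the desaturase, fell from 352 ± 30.9 to 225 ± 3.28 TPM (log2 change -0.64 with SE 0.10 and adjusted p = 0.000131 by limma), and ACC1, acetyl-CoA carboxylase, from 247 ± 2.45 to 161 ± 34.1 TPM (log2 change -0.63 with SE 0.12 and adjusted p = 0.0007 by limma). ACB1, the acyl-CoA binding protein, rose from 833 to 1203 TPM. Of 23 sphingolipid genes 5 rose and 6 fell (median -0.14; 3 rises without T3 B), and 3 rises and 12 falls were counted after quantile normalization. YPC1, a ceramidase, rose from 29.6 to 56.9 TPM, and LCB3, a phosphatase of long-chain bases, fell from 46.996 to 28.4 TPM.

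Vitamin B6 and biotin genes rose in all scalings. Of 15 tested, 10 rose and 0 fell, with a median of 0.63, and the count of 10 rises held in each of the 4 scalings and without each library in turn. BIO4, dethiobiotin synthetase, stood at 46.8 and 42.6 TPM in T1, 199 and 185 TPM in T2, and 464 and 434 TPM in T3. BIO2, biotin synthase, stood at 212 and 199 TPM in T1, 514 and 537 TPM in T2, and 604 and 618 TPM in T3. SNZ1, a subunit of the enzyme that makes pyridoxal phosphate, stood at 142 and 153 TPM in T1, 283 and 301 TPM in T2, and 697 and 558 TPM in T3. Its partner SNO1 rose from 59.2 to 219 TPM, BIO3 from 39.8 to 121 TPM, and the biotin transporter gene VHT1 from 225 to 334 TPM. In all 3 genes given by library T2 lay between T1 and T3 without overlap. BPL1, which attaches biotin to enzymes, stood at 37.7 TPM in T1 and 38.9 TPM in T3 and did not pass (limma adjusted p = 0.736). ACC1, a biotin enzyme, fell as given above. Of 17 thiamine genes 9 rose and 2 fell (median 0.36). THI4 rose from 10.5 to 23.9 TPM and the transporter gene THI7 from 32.8 to 47.8 TPM, while THI5, THI11, THI12 and THI13 are near-identical and uncertain. PHO3, an acid phosphatase that frees thiamine and the most abundant member, fell from 268 to 215 TPM (limma adjusted p = 0.0177).

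NAD synthesis genes moved both ways. Of 14 genes 6 rose and 2 fell (median 0.26; 4 rises and 4 falls after quantile normalization), and 4 rose and 4 fell in each alternative scaling. PNC1, the nicotinamidase, rose from 293 ± 8.97 to 666 ± 34.8 TPM (SD, n = 2; log2 change 1.18 with SE 0.08 and adjusted p = 1.17e-07 by limma). In the route from tryptophan, BNA2 had a log2 change of 0.97 and BNA1 of 0.74. The uptake gene TNA1 fell as given above, and NMA1, of the adenylation step, fell from 51.1 to 27.3 TPM (limma adjusted p = 1.6e-05).

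Lysine and aromatic amino acid synthesis rose in part. Of 8 lysine genes 6 rose and 0 fell (median 0.48), with LYS1, the last enzyme, at 74.3 and 91.7 TPM in T1, 107 and 128 TPM in T2, and 199.8 and 187 TPM in T3. Of 19 histidine and aromatic genes 11 rose and 1 fell (6 rises without T1 A and 6 without T3 A; median 0.33), and there were 6 rises and 3 falls after quantile normalization. ARO9, an aminotransferase of aromatic amino acid breakdown, rose from 7.44 ± 2.04 to 32.3 ± 2.64 TPM (SD, n = 2; log2 change 2.001 with SE 0.16 and adjusted p = 3.15e-07 by limma). Of 10 branched-chain genes 5 rose and 1 fell (median 0.26; 3 rises and 1 falls after quantile normalization). BAT2, the cytosolic aminotransferase, stood at 124 and 132 TPM in T1, 206 and 221 TPM in T2, and 381 and 355 TPM in T3, with no overlap between groups. The mitochondrial form BAT1 rose from 259 to 372 TPM, so that the ratio of BAT1 to BAT2 went from 1.98 and 2.08 in T1 to 1.002 and 1.02 in T3. In one-carbon metabolism, 6 rose and 2 fell (median 0.15; 6 rises and 4 falls after quantile normalization) of 17. SER3 rose from 71.05 to 127 TPM and GCV1 of glycine cleavage from 76.1 to 127 TPM. GCN4, the regulator of amino acid synthesis, stood at 607 and 579 TPM in T1, 648 and 669 TPM in T2, and 805 and 859 TPM in T3, with limma adjusted p = 0.000206. Of 10 arginine genes 4 rose and 2 fell (median 0.11; 1 rises and 4 falls after quantile normalization; 1 rises without T1 A and 2 without T3 A), with more falls than rises in each alternative scaling.

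Sulfur amino acid genes moved both ways. Of 26 genes 10 rose and 6 fell (median 0.05; 5 rises without T1 A, 5 without T3 A and 6 without T3 B), with 6 rises and 9 falls after quantile normalization. Of the 6 falls, 4 were genes of the S-adenosylmethionine cycle, and the others were MET14 and CYS4. SAM2 stood at 636 and 755 TPM in T1, 466 and 509 TPM in T2, and 299 and 294 TPM in T3. SAH1, which recycles the product of methylation, stood at 1173 and 1241 TPM in T1, 851 and 946 TPM in T2, and 633 and 553 TPM in T3. SAM1 and MET6 had log2 changes of -0.80 and -0.74. In each of these 4 genes the T3 libraries lay below the T1 libraries. MET28, a regulator of sulfate use, rose from 43.8 ± 4.90 to 112 ± 6.81 TPM (log2 change 1.34 with SE 0.10 and adjusted p = 2.58e-07 by limma), and the sulfate transporter genes SUL1 and SUL2 had log2 changes of 0.54 and 0.44.

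Amino acid permease genes fell more often than they rose. Of 19 tested 3 rose and 10 fell (52.6% fell; median -0.27), and 12 fell in each alternative scaling. AGP1, a broad permease, fell from 63.3 ± 7.84 to 37.9 ± 0.249 TPM (SD, n = 2; log2 change -0.72 with SE 0.12 and adjusted p = 0.000183 by limma). DIP5 had a log2 change of -0.63, GNP1, the most abundant member, of -0.51, and SSY1, the sensor that induces several permeases, of -0.40. The rises were ALP1, from 6.30 to 22.96 TPM, PUT4, the proline permease, from 21.6 to 47.5 TPM, and AGP2. Genes of nitrogen source use went up more often, and 16 rose and 4 fell (median 0.27; 10 rises without T3 A, 2 falls without T1 B) of 28. DAL80, a GATA repressor, stood at 3.76 and 4.09 TPM in T1, 6.75 and 8.32 TPM in T2, and 15.1 and 16.6 TPM in T3. CAR1, arginase, rose from 73.3 to 159.6 TPM, PUT1, proline oxidase, from 12.3 to 25.002 TPM, and GDH1, glutamate dehydrogenase and the most abundant member, from 565 to 944 TPM. The ammonium transporter genes MEP1 and MEP2 fell, with log2 changes of -0.64 and -0.49, and the activator gene GLN3 fell from 16.5 to 11.5 TPM. The GATAAG letters that such factors bind were found in 11 of 28 windows of the nitrogen list (39.3%) and in 12.47% of all windows. Of those 11 genes 4 rose and 2 fell, beside 16 rises and 4 falls over all 28, so rises were not concentrated in genes with the letters.

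In nucleotide synthesis, 4 rose and 5 fell (median 0.03; 4 rises and 9 falls after quantile normalization; 2 falls without T1 B, 2 without T3 A and 2 without T3 B) of 18 purine genes. Of 13 pyrimidine genes 3 rose and 3 fell (median -0.05; 3 rises and 6 falls after quantile normalization). ADE12 rose from 169 ± 9.998 to 339 ± 3.48 TPM (SD, n = 2; log2 change 0.9997 with SE 0.10 and adjusted p = 3.12e-06 by limma), and CDC21, thymidylate synthase, from 15.6 ± 0.850 to 38.7 ± 2.57 TPM (log2 change 1.26 with SE 0.10 and adjusted p = 4.79e-07 by limma). URA1 fell from 297 ± 37.9 to 166 ± 7.64 TPM (log2 change -0.83 with SE 0.10 and adjusted p = 1.96e-05 by limma). IMD2 rose from 72.8 to 146 TPM and its relatives IMD3 and IMD4 fell, with log2 changes of -0.41 and -0.57, a family of similar sequences in which single values are uncertain.

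Genes of carbon use moved both ways. Of 28 genes of glycolysis, fermentation and glycerol 12 rose and 7 fell (median 0.12; 4 falls without T3 B). GLK1, glucokinase, rose from 132 ± 7.69 to 337 ± 59.3 TPM (SD, n = 2; log2 change 1.33 with SE 0.11 and adjusted p = 6.6e-07 by limma) and TDH1 from 34.3 to 103 TPM, while TDH3, the most abundant member, stood at 9602 TPM in T1 and 10136 TPM in T3 and did not pass. ALD6, the cytosolic aldehyde dehydrogenase, fell from 691 ± 102 to 395 ± 50.9 TPM (log2 change -0.80 with SE 0.12 and adjusted p = 7.59e-05 by limma). Among hexose transporters, HXT4 rose from 86.3 to 188 TPM while HXT2 and HXT1 fell from 113 to 45.5 TPM and from 307 to 157 TPM, and family members of near-identical sequence are uncertain. In the pentose phosphate pathway SOL4 rose from 20.8 to 64.8 TPM and RKI1 fell from 115 to 63.2 TPM.

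Related genes were also read in pairs. Of 30 pairs, 7 had a member that rose and a member that fell, 13 had a single changed member, 8 changed in the same direction and 2 did not change by the test. Opposite calls numbered 6 to 8 under the 4 scalings and 3 to 7 when a library was left out, with 4 without T1 replicate B and 3 without T3 replicate B. The glycerol enzymes exchanged at both steps. GPD1 rose from 249.6 to 437 TPM as GPD2 fell from 164 to 129 TPM, and their ratio went from 1.4999 and 1.54 in T1 to 3.60 and 3.16 in T3. GPP1 fell from 1064 to 731 TPM as GPP2 rose from 123 to 205 TPM, with ratios of 8.67 and 8.57 in T1 and 3.38 and 3.77 in T3. ENO1 rose from 593 to 1159.8 TPM while ENO2 fell from 7935 to 6693 TPM, and the sequences are close enough for reads to be shared. URA8 rose and URA7 fell, and the ratio of URA7 to URA8, both CTP synthases, went from 5.74 and 6.06 to 2.49 and 2.30. GND2 rose and GND1 fell, LEU4 rose and LEU9 fell, and MEP3 rose and MEP1 fell. The MEP pair lost its opposite calls in each alternative scaling and the LEU pair in 2 of the 4. RAS1 fell from 86.8 to 38.4 TPM while RAS2 stood at 167 TPM in T1 and 169 TPM in T3, and SER3 rose while SER33 stood at 73.3 TPM in T1 and 71.6 TPM in T3.

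**Figure D5:**
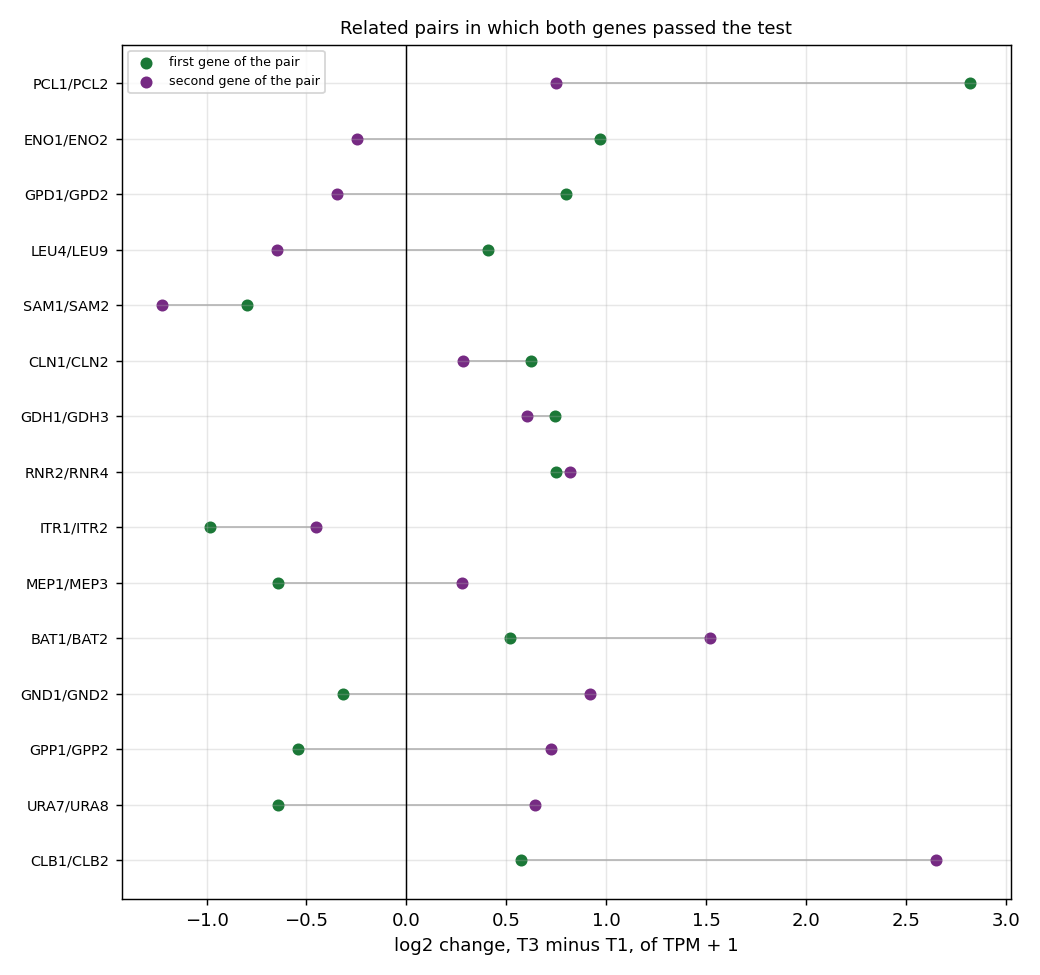
Log2 change of TPM + 1 from T1 to T3 for both genes of the 15 related pairs in which both passed the test, joined by a line. In 7 pairs the points lie on opposite sides of 0, and in 8 on the same side.

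Wall protein genes rose more often than they fell, and their share of all TPM rose. Their summed TPM went from 20510 and 21216 in T1 to 35231 and 33320 in T3. CWP2 alone gained 5793 TPM in the group means, so a large part of the gain in share came from a single transcript. SED1, given above by library, is also a member. Of 42 tested 26 rose and 8 fell (61.9% rose; median 0.52), with 22 to 25 rises under the alternative scalings. CIS3, a protein of the PIR family, stood at 79.96 and 105 TPM in T1, 323 and 352 TPM in T2, and 967 and 874 TPM in T3. SIM1, of the SUN family, stood at 67.6 and 77.5 TPM in T1, 175 and 194 TPM in T2, and 295 and 295 TPM in T3. CRH1, which links chitin to glucan, stood at 286 and 338 TPM in T1, 522 and 586 TPM in T2, and 868 and 861 TPM in T3. All 3 had T2 between T1 and T3 without overlap. SRL1 and SVS1 had log2 changes of 1.85 and 1.79, PST1 of 1.66, and EXG1, an exoglucanase, of 1.04. Members of the same kinds fell: SUN4, of the SUN family, fell from 41.6 ± 10.9 to 21.3 ± 0.724 TPM (SD, n = 2; log2 change -0.91 with SE 0.14 and adjusted p = 0.000138 by limma), UTR2, a relative of CRH1, from 570.2 ± 63.5 to 363 ± 10.5 TPM (log2 change -0.65 with SE 0.10 and adjusted p = 0.000134 by limma), and GAS1, a glucan elongase, from 335 to 259 TPM. Of 25 genes of glucan and chitin synthesis 14 rose and 1 fell (10 rises and 3 falls after quantile normalization; 8 rises without T1 A, 9 without T3 A and 9 without T3 B; median 0.31). GFA1, the first enzyme of the chitin precursor, rose from 238 ± 18.8 to 446 ± 33.1 TPM (log2 change 0.91 with SE 0.10 and adjusted p = 4.23e-06 by limma), and FKS1, glucan synthase, from 195 to 267 TPM.

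Genes of the enzymes that decorate wall proteins fell more often than they rose. Of 26 mannosyltransferase genes 3 rose and 9 fell (14 falls without T1 A; median -0.22; 3 rises and 17 falls after quantile normalization). PSA1, which makes the mannose donor, stood at 311 and 443 TPM in T1, 231 and 239 TPM in T2, and 219 and 215 TPM in T3. PMT1 and PMT2, which start mannosylation in the endoplasmic reticulum, had log2 changes of -0.46 and -0.60. The exceptions were MNN1, the terminal mannosyltransferase, at 74.8 and 81.6 TPM in T1, 130.2 and 155 TPM in T2, and 234 and 239 TPM in T3, OCH1, which opens the outer chain, from 48.1 to 97.6 TPM, and KTR2. Of 23 genes of GPI anchor synthesis 0 rose and 6 fell (2 falls without T1 B, 3 without T3 A and 3 without T3 B; median -0.12; 0 rises and 11 falls after quantile normalization), among them MCD4 from 19.5 to 14.4 TPM and GUP1 from 37.7 to 25.4 TPM. In N-glycosylation, 3 rose and 4 fell (median -0.05; 2 rises and 10 falls after quantile normalization; 7 falls without T1 A, 1 without T1 B, 2 without T3 A and 1 without T3 B) of 25, and ALG13 and ALG14, which together form an enzyme, rose from 46.05 to 86.9 TPM and from 13.98 to 30.5 TPM.

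Genes of daughter cell separation moved both ways. Of 20 members 7 rose and 9 fell (median -0.22; 3 rises without T3 A). CTS1, chitinase, stood at 103 and 217 TPM in T1, 11.05 and 11.9 TPM in T2, and 12.9 and 12.8 TPM in T3. DSE2 stood at 64.02 and 128 TPM in T1, 10.9 and 12.3 TPM in T2, and 13.5 and 14.6 TPM in T3, and SCW11 at 15.7 and 37.8 TPM in T1, 3.38 and 3.86 TPM in T2, and 3.33 and 3.54 TPM in T3. In T1, replicate B lay well above replicate A for each of these, and T2 had already reached the T3 level. Without T1 replicate A the log2 change of CTS1 was -3.97, and without T1 replicate B it was -2.92, past the threshold in both. For SCW11 the values were -3.13 and -1.92, also past the threshold. Of the kinase branch that controls these genes, 5 of 6 members rose: CBK1 rose from 46.4 to 61.7 TPM, MOB2 from 30.7 to 40.1 TPM and SOG2 from 21.5 to 29.6 TPM. KIC1 and HYM1 had log2 changes of 0.37 and 0.35 and TAO3 did not pass. ASH1, a daughter-specific repressor, rose from 36.98 ± 7.81 to 78.3 ± 5.28 TPM (SD, n = 2; log2 change 1.07 with SE 0.13 and adjusted p = 1.48e-05 by limma).

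Cyclin and kinase genes rose more often than they fell. Of 28 members 16 rose and 2 fell (9 rises without T3 A; median 0.34). PCL1, a cyclin of the Pho85 kinase, stood at 5.13 and 5.25 TPM in T1, 13.7 and 21.2 TPM in T2, and 43.9 and 41.6 TPM in T3. CLB2, the main mitotic cyclin, stood at 6.94 and 10.8 TPM in T1, 27.3 and 33.5 TPM in T2, and 59.8 and 59.6 TPM in T3, and CLB6, an S-phase cyclin, rose from 7.02 to 20.7 TPM. T3 exceeded T1 at least by the gap between replicates in each. CDC28, the kinase itself, rose from 98.8 ± 9.26 to 186 ± 7.18 TPM (SD, n = 2; log2 change 0.91 with SE 0.10 and adjusted p = 7.17e-06 by limma). Among regulators of Start, the commitment to division, CLN1 rose from 48.3 to 74.8 TPM, CLN2 from 47.6 to 58.1 TPM and SIC1, an inhibitor of S-phase kinase, from 38.5 to 64.1 TPM. CLN3 stood at 13.9 and 11.6 TPM in T1, 13.4 and 16.05 TPM in T2, and 14.8 and 15.4 TPM in T3 (limma adjusted p = 0.155), and WHI5, the repressor of Start, stood at 9.51 and 7.91 TPM in T1, 7.15 and 7.55 TPM in T2, and 8.49 and 5.66 TPM in T3 (limma adjusted p = 0.2). Neither passed the test. PCL9 fell from 13.4 to 6.94 TPM.

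Of 54 replication genes 21 rose and 6 fell (13 rises without T1 A and 13 without T3 A, 3 falls without T3 B; median 0.24), with 14 rises and 11 falls after quantile normalization. RNR1, the large subunit of ribonucleotide reductase, stood at 12.4 and 17.3 TPM in T1, 45.7 and 56.4 TPM in T2, and 108 and 102 TPM in T3. POL30, the sliding clamp, stood at 20.2 and 20.97 TPM in T1, 49.7 and 47.6 TPM in T2, and 74.8 and 69.9 TPM in T3. RFA2 rose from 40.2 to 72.3 TPM and CDC9, DNA ligase, from 15.5 to 26.7 TPM. Some genes of the helicase and of its loading fell: MCM3 (-0.45), MCM5 (-0.58), MCM6 (-0.35), MCM7 (-0.50) and TAH11 (-0.76) in log2 change. CDC6, also of helicase loading, rose from 5.21 to 9.36 TPM. MCM2 stood at 16.3 TPM in T1 and 16.5 TPM in T3 and did not pass. The MCB element of the G1/S factor MBF, searched as ACGCGT, a palindrome, was found in 2.97% of all 5790 windows and in 23 of 54 windows of replication genes (42.6%), of which 12 rose and 0 fell. It stood in 4.24% of windows of genes that rose and in 1.13% of those of genes that fell. Windows of 30 bases around it are shown for replication genes with the largest rises among those that hold it and for CDC21. That these genes rose was part of the choice, and members with the element that did not pass are not shown. Capitals mark the match a line is centred on, and in the RFA2 lines the other match stands in lower case:
POL30 (chrII:425944-425973, minus strand): ccaaaacgcgaaACGCGTaacttttttttt
RFA2 (chrXIV:48155-48184, plus strand): gccatatacgaaACGCGTtaggaaacgcgt
RFA2 (chrXIV:48167-48196, plus strand): acgcgttaggaaACGCGTtctttcctttat
CDC9 (chrIV:167362-167391, minus strand): cttaacgcgaaaACGCGTgaaagtgaaatt
CDC6 (chrX:69122-69151, plus strand): acgcgaggcctcACGCGTcggagtttccag
CDC21 (chrXV:467730-467759, minus strand): taatatttggtgACGCGTtaaatagaaaaa
CDC21 (chrXV:467693-467722, minus strand): agaccttaattgACGCGTttcctgaaatat
No ACGCGT stands in the 250 bases before RNR1, which says nothing of sequence beyond that window. Of 16 genes of cohesin, condensin and separase 8 rose and 0 fell (median 0.28). MCD1, the cleavable cohesin subunit, rose from 4.84 ± 0.779 to 11.7 ± 0.276 TPM (SD, n = 2; log2 change 1.13 with SE 0.15 and adjusted p = 2.96e-05 by limma), and BRN1 of condensin stood at 7.90 TPM in T1 and 6.32 TPM in T3 and did not pass. Of 65 kinetochore and spindle genes 21 rose and 3 fell (median 0.16; 12 rises without T3 A), and there were 15 rises and 11 falls after quantile normalization. CTF13 rose from 6.15 to 14.3 TPM and CSE4, the centromeric histone, from 13.7 to 23.8 TPM. In polarity, AXL2, a bud site marker, rose from 10.02 ± 0.728 to 38.05 ± 2.23 TPM (log2 change 1.83 with SE 0.12 and adjusted p = 5.71e-08 by limma) and GIC2, an effector of Cdc42, from 46.1 to 132 TPM, while CDC42 stood at 201 TPM in T1 and 201 TPM in T3.

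Endocytosis and sorting genes rose more often than they fell. Of 41 genes of endocytosis and actin patches 25 rose and 3 fell (1 falls without T1 B and 0 without T3 B; 60.98% rose; median 0.39), and after quantile normalization there were 20 rises and 9 falls. The Arp2/3 complex, which nucleates branched actin, rose in each of the subunits tested: ARP2, ARP3, ARC15, ARC18, ARC19, ARC35 and ARC40 had log2 changes of 0.42, 0.60, 0.70, 0.63, 0.62, 0.55 and 0.67. ARC15 stood at 142 and 141 TPM in T1, 185 and 185 TPM in T2, and 238 and 225 TPM in T3. The capping genes CAP1 and CAP2 rose from 112 to 189.6 TPM and from 102 to 148 TPM, and TWF1, twinfilin, from 46.3 to 90.2 TPM. Other genes of the list did not rise. LAS17, the yeast WASP homolog, fell from 34.2 ± 0.908 to 26.4 ± 2.65 TPM (SD, n = 2; log2 change -0.37 with SE 0.11 and adjusted p = 0.0121 by limma), SLA1 fell from 58.3 to 44.8 TPM, and PAN1 stood at 39.98 TPM in T1 and 34.01 TPM in T3. ACT1, actin, stood at 1499.6 and 1542 TPM in T1, 1577 and 1724 TPM in T2, and 1773 and 1634 TPM in T3 (limma adjusted p = 0.0954). Of 19 ESCRT genes, which sort membrane proteins into the vacuole, 11 rose and 0 fell (6 rises without T1 A, 6 without T3 A and 7 without T3 B; median 0.29; 6 rises and 0 falls after quantile normalization), led by SNF7 from 152 ± 0.119 to 271 ± 13.4 TPM (log2 change 0.83 with SE 0.09 and adjusted p = 4.53e-06 by limma). Earlier in secretion, 4 rose and 6 fell (median -0.03; 0 rises and 8 falls after quantile normalization; 2 rises without T1 A, 2 without T1 B and 1 without T3 B) of 21 ER translocation genes. The large channel subunits SEC61 and SSH1 fell, with log2 changes of -0.45 and -0.69, and the small subunit SBH1 rose from 302.5 to 394 TPM.

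Genes of tRNA modification and of several nuclear complexes fell more often than they rose. Of 41 tRNA modification genes 1 rose and 20 fell (12 falls without T1 B and 11 without T3 B; 48.8% fell; median -0.28), and 29 to 33 fell under the alternative scalings. TRM1, a guanine methyltransferase, stood at 69.6 and 80.2 TPM in T1, 54.9 and 61.1 TPM in T2, and 43.4 and 43.9 TPM in T3. TRM8 fell from 77.8 ± 3.09 to 46.8 ± 6.18 TPM (SD, n = 2; log2 change -0.73 with SE 0.11 and adjusted p = 9.9e-05 by limma), and DUS4, a dihydrouridine synthase, from 32.9 to 20.3 TPM. MOD5, which isopentenylates adenine, was the member that rose, from 45.9 ± 0.894 to 70.5 ± 1.19 TPM (log2 change 0.61 with SE 0.10 and adjusted p = 0.000296 by limma). The PAC element, searched as GATGAG and known from ribosome assembly genes, was found in 26 of the 41 windows (63.4%) and in 16.7% of all windows. Of those 26 genes, 13 fell and 1 rose, beside 20 falls and 1 rise over all 41, so falls were about as frequent with and without the element. Over all genes it stood in 27.4% of windows of genes that fell and in 11.9% of windows of genes that rose, and outside the 6 lists set aside in 20.6% and 12.2%. Of 43 mRNA decay genes 4 rose and 12 fell (median -0.12; 2 rises without T1 A and 2 without T3 A, 7 falls without T1 B and 6 without T3 B; 3 rises and 22 falls after quantile normalization), with DHH1, a helicase of decapping, falling from 24.5 to 13.7 TPM and EDC1 rising from 30.5 to 46.99 TPM. Of 32 nuclear pore genes 1 rose and 6 fell (3 falls without T1 B and 3 without T3 B) as deposited (median -0.18). The 18.8% that fell was near the 16.9% of all genes, while 3.1% rose against 31.0%. After quantile normalization 0 rises and 22 falls were counted. NUP170 and NUP100 fell from 26.7 to 17.4 TPM and from 49.3 to 32.3 TPM. POM33, the member that rose, stood at 69.2 and 76.7 TPM in T1, 63.6 and 77.3 TPM in T2, and 101.2 and 84.95 TPM in T3, and did not keep its call after quantile normalization. Of 54 chromatin remodeling genes 5 rose and 14 fell (median -0.14; 2 rises without T3 A, 8 falls without T1 B and 8 without T3 B; 2 rises and 30 falls after quantile normalization). STH1, the ATPase of the RSC complex, fell from 32.3 to 21.2 TPM and RSC4 from 27.4 to 16.3 TPM, while SNF2, the ATPase of SWI/SNF, stood at 19.4 TPM in T1 and 21.3 TPM in T3. SPT15, the TATA-binding protein, fell from 183 ± 9.65 to 114 ± 5.62 TPM (log2 change -0.67 with SE 0.10 and adjusted p = 0.000105 by limma).

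Mitochondrial lists moved apart. Of 33 import genes 1 rose and 16 fell (8 falls without T1 A and 9 without T3 B; 48.5% fell; median -0.23). SSC1, the matrix Hsp70 that drives import, stood at 891 and 931 TPM in T1, 695 and 788 TPM in T2, and 569 and 481 TPM in T3. TIM44, which anchors it, fell from 181 ± 14.1 to 115 ± 3.81 TPM (SD, n = 2; log2 change -0.65 with SE 0.10 and adjusted p = 0.000123 by limma), and TOM70, a receptor of the outer membrane, from 106 to 76.1 TPM. ERV1, of the intermembrane space, was the member that rose, and lost that call after quantile normalization. Of 25 genes of mitochondrial division, fusion and lipids 11 rose and 0 fell (median 0.22). FIS1 and DNM1, of the division machinery, rose from 86.9 ± 0.292 to 171 ± 0.123 TPM (log2 change 0.97 with SE 0.09 and adjusted p = 1.22e-06 by limma) and from 35.4 to 55.02 TPM, while the fusion genes FZO1 and MGM1 stood at 23.8 TPM in T1 and 23.4 TPM in T3 and at 20.4 TPM in T1 and 17.997 TPM in T3 and did not pass. MIC10, which shapes cristae, rose from 255 to 412 TPM.

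In the Ras and protein kinase A list 10 rose and 2 fell (median 0.02; 10 rises and 5 falls after quantile normalization) of 21. PDE1, a phosphodiesterase of cyclic AMP, rose from 45.8 ± 1.82 to 113 ± 10.5 TPM (SD, n = 2; log2 change 1.28 with SE 0.10 and adjusted p = 2.55e-07 by limma), and BCY1, the inhibitory subunit, from 127 to 183 TPM. TPK2, a catalytic subunit, rose from 45.6 to 73.6 TPM, and TPK3, another, stood at 53.9 TPM in T1 and 50.9 TPM in T3. In wall integrity signaling 6 rose and 0 fell (median 0.18) of 17, with KDX1 rising from 36.3 to 73.9 TPM and the kinase gene SLT2 from 171 to 228 TPM, while the sensor genes SLG1 and MID2 stood at 107 TPM in T1 and 93.1 TPM in T3 and at 51.2 TPM in T1 and 55.4 TPM in T3. YPK2, a kinase downstream of TOR complex 2, rose from 48.8 to 125 TPM. Of 22 pheromone genes 1 rose and 7 fell (median -0.06), and those that fell the most were alpha-cell products, MF(ALPHA)2 from 520.3 ± 24.8 to 225 ± 1.01 TPM and SAG1 from 44.8 to 20.7 TPM. A fall of such products from fewer cells that express them and from less RNA per cell cannot be told apart in bulk samples. STE18, the G protein gamma subunit, rose from 70.3 to 95.6 TPM.

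Of 27 drug and polyamine transport genes 1 rose and 7 fell (median 0.01; 4 falls without T1 B, 4 without T3 A and 4 without T3 B), with FLR1 falling from 33.3 to 20.2 TPM and ATR1 from 59.2 to 37.02 TPM. Of 17 zinc and copper genes 1 rose and 5 fell (median 0.07). CTR1, the copper transporter, fell from 45.4 ± 1.20 to 23.9 ± 0.470 TPM (SD, n = 2; log2 change -0.90 with SE 0.10 and adjusted p = 5.38e-06 by limma) and ZRC1, which stores zinc in the vacuole, from 174 to 117 TPM. Of 27 iron genes 9 rose and 2 fell (median 0.21; 9 rises and 5 falls after quantile normalization; 5 rises without T3 A). HMX1, heme oxygenase, rose from 42.9 ± 2.23 to 94.3 ± 8.87 TPM (log2 change 1.11 with SE 0.11 and adjusted p = 2.35e-06 by limma) and SIT1, a siderophore transporter, from 23.6 to 50.5 TPM, while the regulator AFT1 stood at 21.4 TPM in T1 and 25.3 TPM in T3 and the permease FTR1, a classic target, at 136 TPM in T1 and 139 TPM in T3. Neither of these passed. In phosphate genes PHM8, a nucleotidase, rose from 66.98 to 145 TPM and PHO90, a low-affinity transporter, fell from 35.3 to 22.8 TPM, while PHO4 stood at 43.2 TPM in T1 and 37.97 TPM in T3 and did not pass. PMA1, the plasma membrane proton pump, fell from 1219.6 ± 128 to 947 ± 32.2 TPM (log2 change -0.36 with SE 0.09 and adjusted p = 0.00638 by limma). Its small regulators moved apart, PMP1 rising from 1302 to 2269 TPM and PMP2 falling from 2159 to 1169 TPM.

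Position along the chromosome was read as a description. Within 30 kb of an end, 36.6% of 322 genes rose and 12.1% fell (median log2 change 0.18), against 30.9% and 17.1% of 5595 genes farther in (median 0.08). Of 10 tested COS genes, a subtelomeric family of membrane proteins, 7 rose and 0 fell (median 0.59), with COS6 at 99.2 and 104 TPM in T1, 146 and 157 TPM in T2, and 189.5 and 212 TPM in T3. Of 12 PAU genes 4 rose and 0 fell (median 0.49; 2 rises and 0 falls after quantile normalization; 7 rises without T1 A and 2 without T3 B). Members of both families are near-identical, so their values are uncertain. Of 45 meiosis and sporulation genes 17 rose and 1 fell (median 0.30; 10 rises and 4 falls after quantile normalization; 10 rises without T3 B). IME1, the inducer of meiosis, rose from 8.18 ± 0.975 to 15.3 ± 0.452 TPM (SD, n = 2), and NDT80, the later regulator, stood at 7.67 TPM in T1 and 7.13 TPM in T3 and did not pass. SGA1, a sporulation glucoamylase, had the highest T3 mean among those that rose, from 7.55 to 19.03 TPM, and at such levels changes on the log2(TPM + 1) scale are smaller than ratios of TPM.

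Gene length moved with the result. In 5 groups of equal size by coding length, 33.9%, 36.0% and 35.1% of protein-coding genes rose in the 3 shorter groups, 28.8% in the next and 23.0% in the longest, while falls ran from 15.7% to 18.3%. In 5 groups by mean abundance, falls went from 7.85% in the lowest to 26.5% in the highest and rises from 26.4% to 38.3%. With the 6 lists set aside left out, falls went from 7.10% in the lowest to 17.3% in the highest and rises from 26.2% to 43.5%. The part of length in the other results was not tested beyond the alternative with a length trend removed. Among the other motifs, CCCCT, known from stress genes, stood in 27.9% of windows of genes that rose, 13.9% of those that fell and 19.0% of all, and TGACTC, bound by Gcn4, in 8.04%, 4.53% and 6.41%. TGACTC was found in 10 of 19 windows of histidine and aromatic genes. Of these 10 genes 5 rose and 0 fell, beside 11 rises and 1 fall over all 19. It was also found in 3 of 8 lysine windows, of which 3 rose, beside 6 rises over all 8. CACGAAA of SBF stood in 3.58% of windows of genes that rose and in 3.60% of those that fell.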

How the data were processed

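The authors deposited a table of TPM values for 6 libraries of W303 yeast, 3 groups of 2, in which gene counts were divided by gene length and scaled to a fixed total per library. Per the labels' protocols, poly(A) RNA was selected with oligo(dT), libraries were made with a NEBNext Ultra kit and sequenced as paired reads of 150 bases. The submitters' processing notes name STAR 2.5.2b, featureCounts of Subread 1.5.2 and build R64. The strand setting and the treatment of reads with several matches are not given in the sources used here. TPM times gene length came out as whole fragments for 99.8% to 99.9% of values of up to 500 fragments (tolerance 0.1), which gave the depth per library; the precision of low genes is limited by it.

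Of 6401 entries, 1 without a name (4.74 to 5.83 TPM) was left out, and 6165 of 6400 named entries matched the R64 annotation, 5971 of them protein-coding. Entries with a mean of at least 1 TPM were tested on log2(TPM + 1) with limma 3.58.1 in R 4.3.3, with all 6 libraries in the fit, an abundance trend in the variance and Benjamini-Hochberg adjustment over all genes at 0.05. The fit was also tested on simulated data. Folds on this scale understate changes of low genes. Tables and figures were made with Python 3.11.15, pandas 2.3.3, NumPy 2.4.6 and matplotlib 3.10.9. The text names the 15 largest rises and falls, where the T1 or T3 mean reached 10 TPM and the libraries did not overlap, outside the lists of stress, respiration, ribosome, translation and chaperone genes, the 6 largest gains and losses in TPM, and for lists of at least 5 tested genes the largest rise, the largest fall and the most abundant member. Some genes are not reported here. Further members are examples chosen after their values were seen. The comparison and the lists were chosen with earlier results of these data known. Alternatives changed the pseudocount, the filter, the scaling, the libraries used, the variance trend and the replicate term.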

Additional observations from a re-analysis of the deposited data

How the results depend on the processing

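The count of rises kept within 1.5 times of 1877 in all 17 alternatives, while falls, 1024 as deposited, numbered 1567 with the median of ratios, 1723 with quantile normalization, 1843 without ribosomal protein genes in the total and 1908 with a length trend removed. When a library was left out, rises ranged from 1389 to 1881 and falls from 705 to 1029. As a mean over all pairs of a T1 and a T3 library, the pool exchange was 12.6% as deposited and 14.5% without ribosomal protein genes. With these genes kept, the pair of A replicates alone gave 13.5%. Differences between replicates A and B correlated across genes at 0.34 for T1 and T2, -0.096 for T1 and T3, and -0.28 for T2 and T3. These values cannot show whether a letter marks a shared culture or day. A fit with the replicate block gave 1824 rises and 995 falls. Of 186 named genes that passed, 171 were tested in every alternative and 140 of these passed in each. The other 15 were not tested in at least 1 alternative (a higher filter, or protein-coding genes only), and 13 of them passed wherever tested. In all, 33 missed the threshold in at least 1 alternative and 0 changed sign. Lists whose counts move without a library are given with their counts. With 2 libraries a group, the spread rests on few degrees of freedom, and genes of few fragments are limited by depth.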
